A study of Homo sapiens with 2 samples.

Results

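Uridine phosphorylase 1, encoded by UPP1, was measured together with 9 other enzymes of pyrimidine supply in a human corneal epithelial cell line grown in either of 2 media. The set holds 10 of the 26506 genes in the deposited tables: UPP1, UCK1, UCK2, UCKL1, CDA, CMPK1, TYMP, DCTD, UMPS and CAD. UPP1 was selected on its ratio between these libraries, and the other genes were chosen by their place in the same pathway with that ratio known. The ratios below therefore describe the pair of libraries and are no test of it.

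The cells were human corneal epithelial cells, HCECs, an established line (ATCC CRL-11515). In the first condition they grew in what the labels call a defined special medium. This was DMEM/F12 with calcium chloride at 1 mM, fetal bovine serum at 10%, EGF at 10 ng/mL, and antibiotic/antimycotic at working strength. In the second condition they grew in keratinocyte serum-free medium, KSFM, whose composition the labels do not give. Both conditions lasted 72 hours. RNA from 3 cultures was pooled for each medium before poly(A) libraries were made, so there is 1 library per medium, no spread between cultures and no p-value. Serum, calcium, EGF and the base medium cannot be told apart as sources of any difference.

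Pyrimidine nucleotides reach a cell by synthesis from small precursors or by recovery of nucleosides already made. In the first route CAD starts the ring, DHODH oxidises it and UMPS completes uridine monophosphate. In the second, uridine-cytidine kinases phosphorylate uridine and cytidine, and cytidine deaminase turns cytidine into uridine. Uridine phosphorylase works against that recovery: it splits uridine into uracil and ribose-1-phosphate, whose sugar can enter the pentose phosphate pathway. Uridine nucleotides also carry the sugars that cells add to glycoproteins.

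UPP1 (ENSG00000183696) lies on chromosome 7 from 48088628 to 48108733, plus strand, in GENCODE release 29 on GRCh38. RefSeq gives it 3 start sites, 2 of them close together, and the bases before both places are shown because UPP1 is the member whose level differed most. They come from the RefSeq promoter table on GRCh38.p14 and are cut where GENCODE exons begin. The first, chr7:48088454-48088627, ends 77 bases before the start at 48088704, and its capitals mark an AP-1 motif. The second, chr7:48089004-48089211, precedes the start at 48089254 and lies inside the gene clear of exons, and its capitals mark 2 overlapping GC boxes.

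UPP1 upstream start: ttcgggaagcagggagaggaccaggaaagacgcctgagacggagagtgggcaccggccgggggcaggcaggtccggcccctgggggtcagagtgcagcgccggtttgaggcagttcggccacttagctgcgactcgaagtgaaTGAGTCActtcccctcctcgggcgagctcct

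UPP1 downstream start: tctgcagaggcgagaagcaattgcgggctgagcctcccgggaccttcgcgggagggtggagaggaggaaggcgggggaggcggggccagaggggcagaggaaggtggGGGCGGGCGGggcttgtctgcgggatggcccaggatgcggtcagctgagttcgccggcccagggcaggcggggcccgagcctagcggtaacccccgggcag

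Which of these starts the cells used was not measured. The AP-1 motif, TGANTCA on either strand, was found 107 to 101 bases before the upstream start. It was absent from the windows of the other 9 members and present in 7.71% of 35116 RefSeq windows of 300 bases. It was 1 of 10 motifs searched, and others were also confined to 1 member. These were the E-box (CACGTG) in UCKL1, NRF1 (GCGCATGC) in UCK1 and E2F (TTTCCCGC) in CDA. An NF-kB motif, GGNNTTCCC on either strand, lay 58 to 50 bases before the same UPP1 start, past the bases shown. Windows of 3 members and 6.70% of all windows held it. The GC box, GGGCGG on either strand, was found in a window of 7 of the 10 members and in 44.95% of all windows. A match is a string of letters and no evidence of binding.

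UPP1 transcripts were 5.66-fold lower in the special medium (exact 95% interval 5.38 to 5.94). The libraries held 1814 estimated counts of UPP1 in the special medium and 13083 in KSFM. As CPM, counts scaled to library size, this was 107 (102 to 112) in the special medium and 606 (596 to 617) in KSFM. The intervals are exact and cover the counting error of reads only, not spread between cultures. The reads carried no molecular identifiers and several can stem from 1 molecule, so the intervals can be too narrow for counts of molecules. On the deposited TPM scale, which adjusts for transcript length, UPP1 was at 146.95 in the special medium and 747.3 in KSFM. It held rank 1173 by TPM in the special medium and rank 153 in KSFM, among all 26506 genes. It remained the member with the highest TPM in both libraries.

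**Figure D1:**
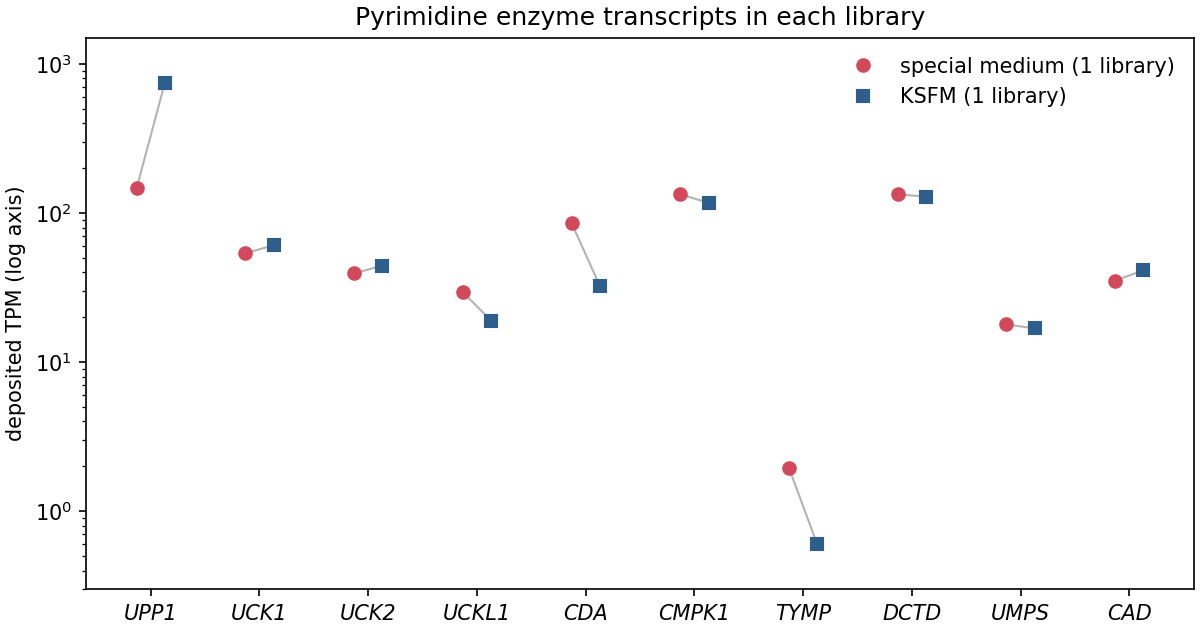
Deposited TPM (log axis) of the 10 members in the special medium library (circles, left) and the KSFM library (squares, right), with a line joining the 2 values of a gene. UPP1 stands at 146.95 in the special medium and 747.3 in KSFM, CDA at 85.86 in the special medium and 32.59 in KSFM, and the other members but TYMP within a factor of 2.

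The log2 ratio of UPP1, special medium over KSFM, was −2.50 (−2.57 to −2.43). It was −2.34 on TPM with a pseudocount of 1, a scale that shifts the median of all genes by 0.15, and −2.49 once that shift was removed. Of all 13632 genes that reached 1 CPM in at least 1 library, 82 had a lower ratio. Among the 2338 genes at 100 CPM or more in KSFM, a group chosen by the library in which UPP1 was high, 5 did. Within that group the genes nearest to UPP1 in ratio, by distance over these 2 libraries only, were SEC11C at −2.53, MANF at −2.41 and AGR2 at −2.39. The mean transcript length behind the reads hardly moved: the effective length of UPP1 was 0.524 times that of the median gene in the special medium and 0.520 times in KSFM. No transcript of another gene matched UPP1 over 150 bases at 95% identity or more.

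Of the 13632 genes that reached 1 CPM in at least 1 library, 6.77% were called lower and 9.86% higher. A gene is called here where its levels differ 2-fold or more and the interval leaves out equality. By this rule UPP1 was called lower, CDA and TYMP were called higher, and the other 7 members were neither. All 10 members passed the 1 CPM filter. These shares stand beside the members' counts as background only, since the members were picked with the same ratios in view. On TPM with a pseudocount of 1 the split over all genes was 1265 higher and 349 lower, against 1344 and 923 on counts. With the TPM ratios centred it was 928 and 536, and with a pseudocount of 0.1 it was 1656 and 605.

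**Figure D2:**
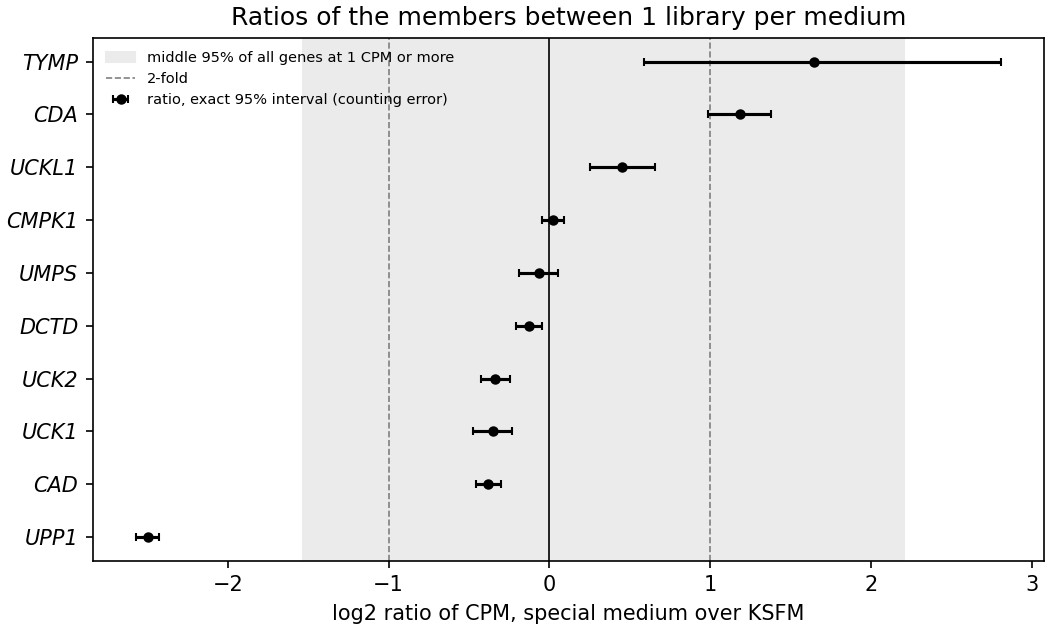
Log2 ratio of CPM, special medium over KSFM, for each member (points) with its exact 95% interval for counting error (bars). The grey band spans the middle 95% of genes at 1 CPM or more, from −1.53 to 2.21; UPP1 at −2.50 lies outside it and the other 9 members inside.

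The uridine-cytidine kinases, which return uridine and cytidine to the nucleotide pool, did not share the difference seen in UPP1. UCK1 (ENSG00000130717, chromosome 9 from 131523801 to 131531268) had 53.7 TPM in the special medium and 60.81 TPM in KSFM, on 912 counts in the special medium and 1486 in KSFM. Its log2 ratio was −0.35 (−0.47 to −0.23). UCK2 (ENSG00000143179, chromosome 1 from 165827531 to 165911618), a kinase of the same reaction known for high levels in many tumours, had 39.36 TPM in the special medium and 44.47 TPM in KSFM. Its 1564 counts in the special medium and 2517 in KSFM gave a ratio of −0.34 (−0.43 to −0.24), so that UCK1 and UCK2 had nearly equal ratios with overlapping intervals. UCK2 overlaps TMCO1 on the opposite strand over 225 bases. UCK1 stood at 1.36 times the TPM of UCK2 in the special medium and 1.37 times in KSFM.

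UCKL1 (ENSG00000198276, chromosome 20 from 63939829 to 63956415), the uridine-cytidine kinase-like protein, differed the other way. It had 29.5 TPM in the special medium and 18.99 TPM in KSFM, on 425 counts in the special medium and 396 in KSFM. It had a log2 ratio of 0.45 (0.25 to 0.65) whose interval is clear of those of UCK1 and UCK2. An antisense gene, UCKL1-AS1, overlaps it and had 7 counts in the special medium and 27 in KSFM. Added together, the 3 kinases came to 123 TPM in the special medium and 124 TPM in KSFM. UPP1 thus stood at 1.20 times the summed kinases in the special medium and 6.01 times in KSFM, a relation that library scaling cannot change.

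CDA (ENSG00000158825, chromosome 1 from 20588948 to 20618908), cytidine deaminase, makes uridine from cytidine and so feeds the substrate of UPP1. It had 589 counts in the special medium and 331 in KSFM. This was 34.8 CPM (32.1 to 37.7) in the special medium and 15.3 CPM (13.7 to 17.1) in KSFM, a 2.27-fold higher level (1.98 to 2.60). Because the interval reaches below 2-fold, the call is lost where the whole interval must lie beyond 2-fold. By TPM, CDA held rank 4 among members in the special medium, at 85.86, and rank 7 in KSFM, at 32.59. UPP1 had 1.71 times the TPM of CDA in the special medium and 22.9 times in KSFM.

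The other deaminase, DCTD (ENSG00000129187, chromosome 4 from 182890060 to 182917936), converts deoxycytidine monophosphate to deoxyuridine monophosphate, the precursor of thymidylate. It had 133.42 TPM in the special medium and 129.12 TPM in KSFM, on 2108 counts in the special medium and 2941 in KSFM. Its log2 ratio was −0.13 (−0.21 to −0.05) on counts, 0.05 on TPM with a pseudocount of 1 and −0.10 with those TPM ratios centred. The ratio is small and its sign depends on the scale, so no direction is given. Next to it in level was CMPK1 (ENSG00000162368, chromosome 1 from 47333797 to 47378839), the kinase that turns uridine and cytidine monophosphates into diphosphates. CMPK1 had 133.52 TPM in the special medium and 117.22 TPM in KSFM, and its 3097 counts in the special medium and 3893 in KSFM gave a ratio of 0.02 (−0.05 to 0.09).

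TYMP (ENSG00000025708, chromosome 22 from 50525752 to 50530056), thymidine phosphorylase, is the counterpart of UPP1 for thymidine. It was the scarcest member, with 1.95 TPM in the special medium and 0.6 TPM in KSFM. Its 27 counts in the special medium (26.75 as estimated) and 11 in KSFM gave a 3.13-fold higher level (1.503 to 6.99). The call is lost on TPM with a pseudocount of 1, where the log2 ratio was 0.88, and with a filter of 10 CPM. TYMP shares stretches of identical sequence with 2 neighbours on the same strand, ODF3B with 21 counts in the special medium and 10 in KSFM, and SCO2 with 190 in the special medium and 321 in KSFM. How reads were split among the 3 genes is uncertain. UPP2, the second uridine phosphorylase gene, had 0 counts in both libraries, where 3 counts would correspond to 0.177 CPM in the special medium and 0.139 CPM in KSFM.

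**Figure D3:**
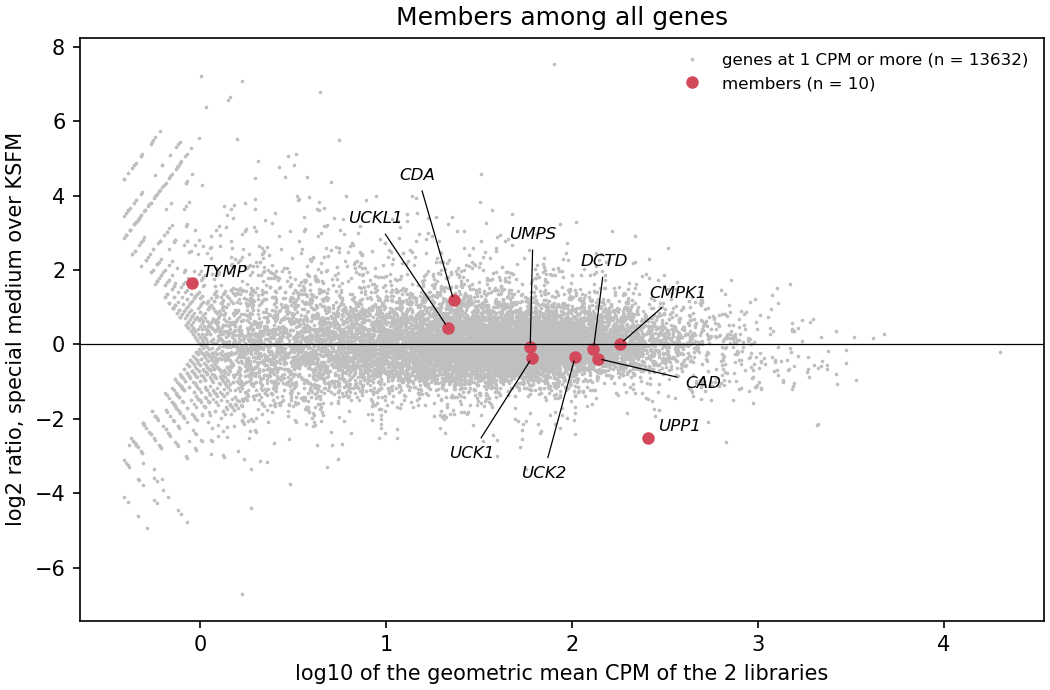
Log2 ratio, special medium over KSFM, against the log10 geometric mean CPM of the 2 libraries for 13632 genes (grey) and the 10 members (red); counts of 0 enter at a floor of 3 counts in the ratio. UPP1 lies apart at −2.50, CDA and TYMP lie above the line of equality at 1.18 and 1.65, and the other members lie close to it.

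The 3 enzymes of synthesis from small precursors were not called by the rule above, and their median log2 ratio was −0.38. CAD (ENSG00000084774, chromosome 2 from 27217390 to 27243943), which carries out the first steps, had 35.27 TPM in the special medium and 41.27 TPM in KSFM. Its 2041 counts in the special medium and 3387 in KSFM gave a log2 ratio of −0.38 (−0.46 to −0.30). UMPS (ENSG00000114491, chromosome 3 from 124730366 to 124749273), which completes uridine monophosphate, had 17.91 TPM in the special medium and 16.85 TPM in KSFM. Its ratio was −0.07 (−0.19 to 0.05) on 984 counts in the special medium and 1315 in KSFM. On TPM with a pseudocount of 1 it was 0.08, and −0.07 with those TPM ratios centred. DHODH, the mitochondrial step between them and not a member, had 262 counts in the special medium and 624 in KSFM, with a ratio of −0.90 (−1.11 to −0.69). It did not reach the call, but was called lower once a trend of the ratios on effective length was removed.

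Taken by weight of transcripts, UPP1 supplied 21.7% of the summed TPM of the 10 members in the special medium and 61.8% in KSFM. The 9 others summed to 530.5 TPM in the special medium and 462 TPM in KSFM, a log2 ratio of 0.20. On TPM with a pseudocount of 1 the median of all genes is itself shifted by 0.15, so no direction is given for this sum. Set against UMPS, the last step of synthesis, UPP1 had 8.20 times the TPM in the special medium and 44.4 times in KSFM. Against PNP, the purine nucleoside phosphorylase that does for inosine and guanosine what UPP1 does for uridine, it had 1.40 times in the special medium and 9.17 times in KSFM. PNP itself had 104.61 TPM in the special medium and 81.51 TPM in KSFM, and a log2 ratio of 0.19 (0.10 to 0.28) on counts.

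Other properties did not set UPP1 apart from the rest of the set. All 15 RefSeq windows of the members were richer in G and C than the median window, at 61.3% to 80.7% against 58.7%. CDA had 8 CG dinucleotides in its window, fewer than the median of 14, as did 1 of the 2 UCKL1 windows with 11, while the other 13 windows had more. An E2F motif, TTTCCCGC on either strand, spanned the CDA start; 1.63% of all windows hold one. Effective lengths in the special medium ran from 0.291 times the median gene in CDA to 2.46 times in CAD.

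Around the members, 110 further genes of nucleotide metabolism were read in 17 lists. Of the 95 that reached 1 CPM, 11 were called higher, 2 lower and 82 neither. This was 11.6% higher and 2.11% lower, against 9.86% and 6.77% of all genes, with a median log2 ratio of 0.10 against 0.00 for all genes. The degradation list came nearest to the product of UPP1. DPYD, dihydropyrimidine dehydrogenase, takes the first step in breaking down the uracil that UPP1 releases. It was 4.04-fold higher in the special medium, with 671 counts against 212 in KSFM and a log2 ratio of 2.01 (1.79 to 2.24). The later enzymes DPYS and UPB1 stayed under 1 CPM in both media.

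**Figure D4:**
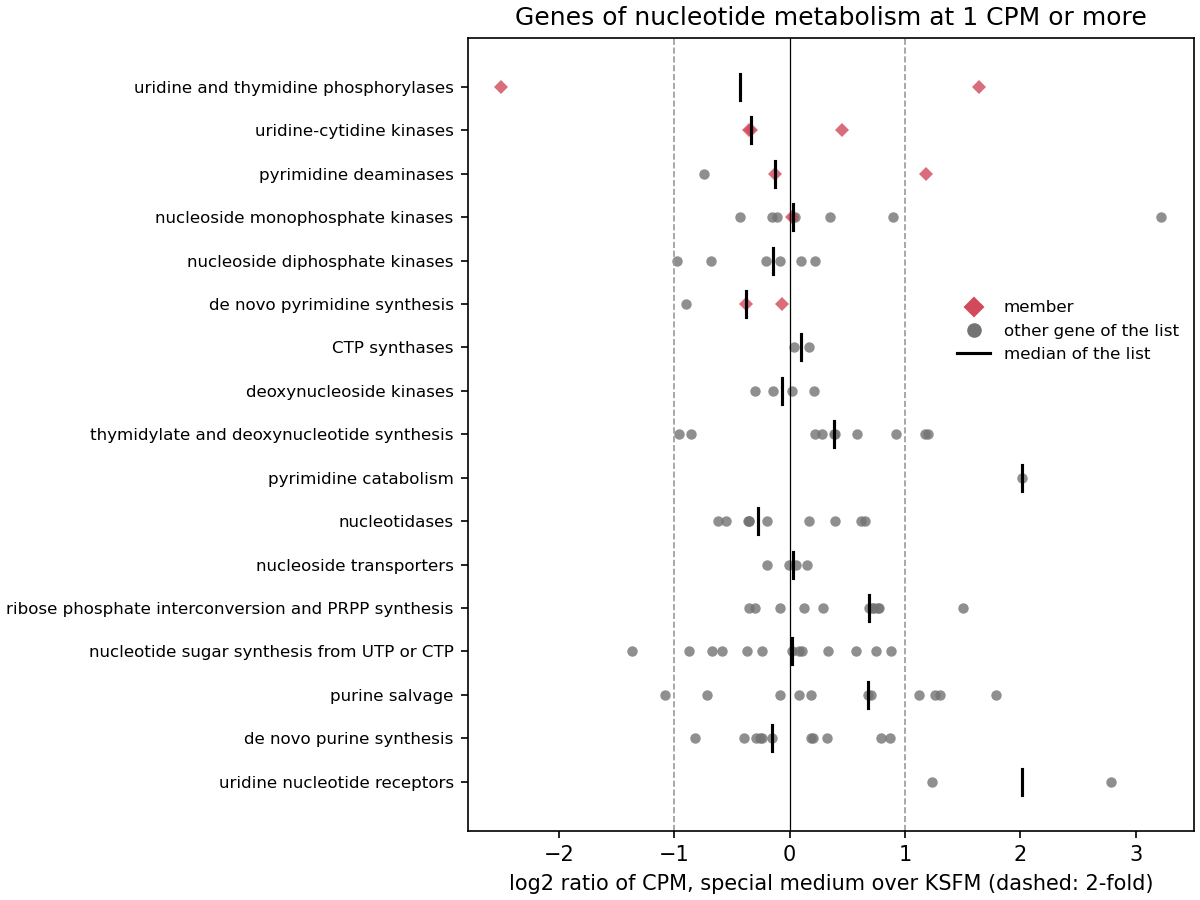
Log2 ratio of CPM, special medium over KSFM, of every gene at 1 CPM or more in 17 lists of nucleotide metabolism, with members as red diamonds, other genes as grey circles and the list median as a black bar. UPP1 at −2.50 lies furthest to the left, while CMPK2 at 3.22, P2RY6 at 2.78 and DPYD at 2.01 lie furthest to the right.

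Nucleotide kinases downstream of the members were mostly near equality. Of 9 measured monophosphate kinases 1 was called, CMPK2, a mitochondrial kinase known as an interferon-induced gene. CMPK2 had 12.43 TPM in the special medium and 1.17 TPM in KSFM, a log2 ratio of 3.22 (2.70 to 3.78) on 248 counts in the special medium and 34 in KSFM. None of the 6 diphosphate kinases was called. NME2 had a ratio of −0.98 (−1.02 to −0.93) and NME1 of −0.68 (−0.76 to −0.60), and how reads were split between these similar genes was not tested. Both CTP synthases, which make CTP from UTP, were also uncalled: CTPS1 had a ratio of 0.04 (−0.02 to 0.10) and CTPS2 of 0.17 (0.08 to 0.26).

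On the deoxynucleotide side, none of 4 deoxynucleoside kinases was called, and TK1, which recovers thymidine, had a ratio of 0.21 (0.15 to 0.28). DGUOK, the mitochondrial deoxyguanosine kinase, was at −0.30 (−0.45 to −0.15). SAMHD1, which breaks down deoxynucleotides, was 2.26-fold higher in the special medium, with 873 counts against 493 in KSFM and a log2 ratio of 1.18 (1.01 to 1.34).

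Entry and release of nucleosides showed no calls. The equilibrative transporters that carry uridine, SLC29A1 and SLC29A2, had log2 ratios of −0.0048 (−0.15 to 0.14) and −0.20 (−0.37 to −0.02). The 3 concentrative transporters SLC28A1, SLC28A2 and SLC28A3 had 7 counts or fewer in each library. None of 10 measured nucleotidases was called; NT5C2 was at 0.66 (0.58 to 0.73) and NT5C at −0.35 (−0.50 to −0.21).

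Genes that use what these routes make gave further calls. The sugar set free by UPP1 can enter the pentose phosphate pathway, where TKT, transketolase, was 2.83-fold higher, the 1 call among 11 genes of ribose phosphate and PRPP supply. That list's median log2 ratio was 0.69. Of 13 genes for nucleotide sugars, their precursors or other products of UTP or CTP, UAP1L1 was called lower and 12 were neither. UAP1L1 had a ratio of −1.37 (−1.75 to −0.999) on 78 counts in the special medium and 257 in KSFM. Both measured receptors for extracellular uridine nucleotides were called higher. P2RY6, the UDP receptor, had 27 counts in the special medium and 5 in KSFM, a ratio of 2.78 (1.39 to 4.52), and P2RY2, which responds to UTP, had 366 in the special medium and 198 in KSFM, a ratio of 1.24 (0.98 to 1.49). Neither receptor is called with TPM centred, and UAP1L1 is not called on TPM with a pseudocount of 1.

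Marker genes were read beside these results. The corneal keratins were absent or nearly so, with KRT12 at 0 counts in both libraries and KRT3 at 1 count in the special medium and 0 in KSFM, while EPCAM and CDH1 were abundant. In all, 5 of 10 epithelial markers reached 1 CPM, and the 10 summed to 694 TPM in the special medium and 572 TPM in KSFM. EPCAM made up most of this, at 449 TPM in the special medium and 301 in KSFM. EPCAM and PAX6 had log2 ratios of 0.40 and 0.43, and CDH1 and KRT5 of −0.32 and −0.60. KRT15 was called higher, with 160 counts in the special medium and 60 in KSFM. KRT14, TP63 and ALDH3A1 stayed under 1 CPM in both media. Fibroblast markers, 1 of 8 at 1 CPM, summed to 3.25 TPM in the special medium and 2.64 in KSFM, with LUM, KERA and THY1 at 0. Endothelial markers, 1 of 5, summed to 7.74 TPM in the special medium and 0.3 in KSFM, with TEK at 0. In the special medium nearly all of this came from CDH5, which was called higher. CDH5 had 236 counts in the special medium and 3 in KSFM, a log2 ratio of 6.65 (5.08 to 8.94). Immune markers, 3 of 6, summed to 78.3 TPM in the special medium and 62.8 in KSFM, most of it from CD68 at 70.86 TPM in the special medium and 59.53 in KSFM. CD14 was called higher, with 62 counts in the special medium and 2 in KSFM, and LYZ was called lower, with 11 in the special medium and 48 in KSFM, while CD3E was at 0 in both libraries and PTPRC at 0 counts in the special medium and 1 in KSFM. Melanocyte markers, 1 of 4, summed to 6.48 TPM in the special medium and 4.44 in KSFM, with TYR at 0. The part of such cells in the members' ratios was not tested, and fewer cells of a type cannot be told apart from less RNA per cell.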

How the data were processed

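Poly(A) RNA was sequenced from 1 pooled library per medium. The submitters' processing notes name the GRCh38 build, HISAT2 2.1.0 and RSEM, with fastp 0.20.0 and FastQC 0.11.9. Which annotation and strand setting RSEM took is not given in the sources used here. For each gene symbol the authors deposited estimated counts (fractional in 8.05% of genes in the special medium and 11.3% in KSFM) and TPM values.

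Estimated counts were rounded, giving totals of 16900472 in the special medium and 21604652 in KSFM, and scaled by edgeR 4.0.16 TMM factors (1.00 and 0.999). No replicate test was possible. Each ratio has a 95% interval for counting error (exact, Clopper-Pearson, given the sum of both counts), and each CPM an exact Poisson interval. Alternatives were scaling by DESeq2 1.42.0, by upper quartile or by total count, TPM ratios (pseudocount 1, also centred, or 0.1), a cubic trend on effective length (estimated count per TPM) removed, other CPM filters, a 4-fold rule and an interval beyond 2-fold. Copies were sought by blastn among GENCODE release 29 transcripts.

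The members and lists were chosen with earlier results of these data known. Per list, up to 4 called genes with the largest ratios are named, or the 2 with the highest TPM where none was called, and beside UPP1 the 3 genes nearest in ratio among those at 100 CPM or more in KSFM; others were named after their values were seen. Of the listed genes, 2 were found under older symbols. A result of the deoxynucleotide list is not reported here. Scripts ran in Python 3.11.15 (scipy 1.17.1, pandas 2.3.3, numpy 2.4.6) and R 4.3.3.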

Additional observations from a re-analysis of the deposited data

How the results depend on the processing

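UPP1 was called lower under all 11 alternatives run. Its log2 ratio was −2.34 on TPM at pseudocount 1 and −2.35 at pseudocount 0.1, beyond its counting interval. Against 2 members called higher, 1 was called, CDA, on TPM with a pseudocount of 1, on those values centred, and with a filter of 10 CPM; 0 were called by the 4-fold rule or with the interval beyond 2-fold. Over all genes, 788 were higher and 446 lower with the 10 CPM filter, 408 and 162 by the 4-fold rule, and 837 and 395 with the interval beyond 2-fold; on TPM 349 (pseudocount 1), 605 (pseudocount 0.1) and 536 (centred) were lower. CMPK1, DCTD and UMPS, none of them called, changed sign under 2 alternatives each. Of 374 recomputed list counts 341 stayed within 1.5 times. Most of these were counts of 0 that stayed at 0, so the figure says little about how stable the calls are. At the depth of these libraries TYMP, P2RY6 and UPP2 are limited by counts of 27 or fewer.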

Other observations

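Of 11 measured genes of purine salvage and breakdown, 4 were called higher in the special medium and 1 lower. Over all genes 9.86% were called higher and 6.77% lower. The list's median log2 ratio was 0.68, and its higher calls include GDA and XDH, which act in breakdown. GDA, guanine deaminase, had 50.4 TPM in the special medium and 15.2 TPM in KSFM, a ratio of 1.79 (1.66 to 1.91). ADA, adenosine deaminase, was 2.48-fold higher, ADK, adenosine kinase, 2.40-fold higher, and XDH, xanthine dehydrogenase, 2.18-fold higher on 178 counts in the special medium and 104 in KSFM. APRT, which recovers adenine, was the gene called lower, with 681 counts in the special medium and 1838 in KSFM and a ratio of −1.08 (−1.21 to −0.95). The APRT call is lost on each TPM scale, and the XDH call on TPM with a pseudocount of 1, centred or not. Both are lost with the length trend removed and with the interval beyond 2-fold.

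None of 11 genes of purine synthesis from small precursors was called, and the list median was −0.15. IMPDH2, which commits the pathway to guanine nucleotides, was at −0.24 (−0.29 to −0.19), and PAICS, a bifunctional enzyme of the middle steps, at 0.32 (0.27 to 0.37).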
